A study of Mus musculus with 9 samples.

Results

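The gene set described here holds 10 mouse genes of bone morphogenetic protein (BMP) signalling, taken by name: the ligands Bmp4 and Bmp7, the receptor gene Bmpr1a, the signal transducers Smad1 and Smad9, the inhibitory Smad6, and the inhibitor-of-differentiation genes Id1, Id2, Id3 and Id4. All 10 were among the 52636 genes in the count table, and all 10 passed the low-count rule that left 16198 genes for testing. RNA was sequenced from 3 mouse embryonic stem (ES) cell lines, with 3 libraries of each. The line 44C6 is titled as a Nanog knockout and is called Nanog-null here. The line 44J is titled as a Nanog knockout with Esrrb, and 44JN as a Nanog knockout with Esrrb and Nanog; they are called the Esrrb and the Esrrb+Nanog line. All 3 lines thus carry the Nanog deletion. The genotype label is N{delta} for 44C6 and N{delta}:cE:iN for both other lines, so the titles alone tell those lines apart. No treatment is labelled: cells of all lines grew in serum with LIF, the cytokine that sustains mouse ES cells, and were sorted as PECAM+ and PDGFRA- before RNA extraction. Each group is 1 line, so line and genotype cannot be told apart, and the labels do not say whether the 3 libraries of a line came from separate cultures. The p-values therefore measure only the spread between libraries, which may be technical.

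A BMP ligand binds a pair of type I and type II serine/threonine kinase receptors on the cell surface. The activated type I receptor phosphorylates Smad1, Smad5 or Smad9, which enter the nucleus with Smad4 and bind regulatory DNA, and Smad6 and Smad7 are target genes that act back as inhibitors. Id genes are the best-known direct targets: their proteins have a helix-loop-helix domain without the DNA-binding basic region, pair with E proteins and keep them off DNA. In mouse ES cells, BMP with LIF sustains self-renewal, and Id proteins restrain neural differentiation.

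Stretches of 250 bases just before the transcription start were taken from RefSeq (GRCm38.p6), which held a promoter for 8 of the 10 genes, all but Id1 and Bmp7. They are printed for Bmp4, which had the largest fold difference between lines, and for Id3 and Id2, which moved in opposite directions when the Esrrb+Nanog line was set against the Esrrb line. Each is written 5′ to 3′ on the gene's own strand, with matches to 5 searched motifs in capitals: chr14:46390670-46390919 (minus strand) for Bmp4, chr4:136143572-136143821 (plus strand) for Id3 and chr12:25096093-25096342 (minus strand) for Id2. RefSeq starts differ from the gene ends given below, which are from GENCODE. The Id3, Id2 and Bmpr1a windows lie inside those gene spans, and the Smad1 window does in part.
Bmp4: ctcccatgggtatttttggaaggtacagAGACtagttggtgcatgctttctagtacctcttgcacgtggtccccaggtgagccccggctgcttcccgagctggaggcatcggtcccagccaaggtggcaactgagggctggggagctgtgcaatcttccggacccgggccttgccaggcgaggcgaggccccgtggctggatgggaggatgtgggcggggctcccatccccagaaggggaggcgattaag
Id3: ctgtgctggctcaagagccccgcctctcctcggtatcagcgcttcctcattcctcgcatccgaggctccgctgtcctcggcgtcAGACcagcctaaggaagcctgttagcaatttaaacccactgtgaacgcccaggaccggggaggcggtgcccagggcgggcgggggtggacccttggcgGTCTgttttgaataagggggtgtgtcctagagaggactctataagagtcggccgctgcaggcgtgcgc
Id2: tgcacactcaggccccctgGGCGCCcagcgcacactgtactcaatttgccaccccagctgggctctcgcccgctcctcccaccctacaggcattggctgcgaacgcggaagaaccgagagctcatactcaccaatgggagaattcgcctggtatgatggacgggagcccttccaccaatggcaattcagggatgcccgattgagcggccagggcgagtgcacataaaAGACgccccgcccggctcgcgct
The motifs, searched on both strands, were the GC-rich Smad1/5 element GGCGCC, the Smad-binding element GTCT, the composite BMP response element (which contains both), the related element GCCGNCGC and the estrogen-related receptor element TCAAGGTCA. Among the 8 promoters, GGCGCC was found in those of Bmpr1a, Smad9, Id2 and Id4, against 9.59% of 32851 promoters of this length. The 8 promoters were 62.8% to 78.8% G and C, against a median of 52.4% over all promoters, and the part of base composition in these matches was not tested. GTCT was found in those of Bmp4, Smad9, Smad6, Id2 and Id3, against 82.9% of all promoters. In the printed Bmp4 and Id2 sequences and in 1 of the 2 places in Id3 it reads AGAC, its reverse complement. GCCGNCGC was found in those of Bmpr1a and Id4, against 6.89%. The composite element and the estrogen-related receptor element were in none of the 8, against 0.07% and 0.387% of all promoters. A match is a run of letters, not a binding site, and no binding data were used.

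Library totals ran from 21808120 to 32496267 counts. Values are given as CPM, counts scaled to a common library size by library total and trimmed-mean factors. Nanog read at 14.3 to 16.0 CPM in Nanog-null cells, 29.7 to 35.1 in Esrrb cells and 221 to 332 in Esrrb+Nanog cells; which part of the gene was deleted is not labelled, so these reads do not check the deletion. Esrrb read at 253 to 303, 691.5 to 948 and 1055 to 1150 CPM in the same order. Both genes of the sort differed by line. Pecam1 read at 93.4 to 110, 52.0 to 68.5 and 46.4 to 54.2 CPM and was lower in the Esrrb (log2 -0.71, adjusted p = 0.000176) and Esrrb+Nanog lines (-1.02, 9.38e-06) than in the Nanog-null line. Pdgfra, the marker sorted against, read at 0.46 to 4.42, 5.83 to 14.1 and 1.77 to 3.86 CPM. It was higher in the Esrrb than in the Nanog-null line (log2 2.16, adjusted p = 0.00474) and lower in the Esrrb+Nanog than in the Esrrb line (-1.85, 0.0337), a call that ended in DESeq2 (adjusted p = 0.0856) and in 6 of the 9 fits that left out 1 library. All 6 ES cell markers were detected in all 9 libraries, with summed levels of 2599 to 2761, 3142 to 3257 and 2902 to 3152 CPM. Nanog-null replicate 2 stood apart: its summed trophoblast markers were 199 CPM against 57.9 and 92.6 in its replicates, and its fibroblast markers 83.3 against 13.7 and 25.5. In the other 6 libraries these sums were 24.5 to 40.5 and 7.37 to 14.1 CPM. Primitive endoderm markers, none at 0 in any library, summed to 255 to 551, 442.5 to 631 and 580 to 709 CPM in the 3 lines. The laminin genes weigh heavily in these sums. Lama1 alone read at 28.1 to 64.0, 103 to 183 and 330 to 404 CPM, and Lamb1 at 146 to 204, 57.3 to 75.4 and 54.5 to 62.7. Of 11 primitive endoderm markers tested, 6 were higher and 2 lower in the Esrrb than in the Nanog-null line (median log2 1.09). Among all tested genes 24.2% were called in each direction. In the Esrrb+Nanog relative to the Esrrb line 1 was higher (Lama1) and 3 were lower, Gata6, Pdgfra and Dab2 (median over the 11 -0.84). Shares over all tested genes were 5.43% and 7.75%, and DESeq2 had 2 lower. The Dab2 call (adjusted p = 0.0401) ended with the low-count rule of 5 CPM (0.0510). It also ended without Nanog-null replicate 3, Esrrb replicate 2 or 3, or any 1 Esrrb+Nanog replicate (0.0560 to 0.134). Gata6, a defining factor of that lineage, read at 1.39 to 6.08, 13.5 to 39.0 and 3.62 to 10.6 CPM (log2 2.76 and -1.87, adjusted p = 0.000761 and 0.0220); the second call ended without Esrrb replicate 2 or Esrrb+Nanog replicate 1 or 3 (0.0555, 0.0648 and 0.0680). The part of these cells in the results was not tested, and in sorted bulk samples a change in cell proportions and in RNA per cell cannot be told apart.

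Of the 10 genes, the Esrrb line had Bmp4, Id1 and Id3 higher and Bmp7, Bmpr1a, Smad6 and Id4 lower than the Nanog-null line, 3 higher and 4 lower at an adjusted p of at most 0.05. Over all tested genes 48.5% were called in this comparison, 24.2% in each direction. The Esrrb+Nanog line had Id3 and Smad6 higher and Id1 and Id2 lower than the Esrrb line, 4 of 10 genes against 13.2% of all genes (5.43% higher and 7.75% lower). Of all calls in this comparison 41.2% were higher, and 59.6% with libraries scaled by their totals alone, where the same 4 genes were called in the same directions. Against the Nanog-null line, the Esrrb+Nanog line had Bmp4, Id1 and Id3 higher and Bmp7, Bmpr1a, Id2 and Id4 lower, 7 of 10 against 54.4% (27.2% in each direction). In all, 8 of the 10 genes were called in at least 1 comparison, as 63.5% of all genes were. The libraries of the 2 lines compared did not overlap for 8, 4 and 7 of the 10 genes in the 3 comparisons, against 58.4%, 31.6% and 61.9% of all genes. The 2 comparisons with the Nanog-null line share its libraries. The numbers called in each direction were the same without Nanog-null replicate 2. Median log2 fold changes of the 10 genes were -0.14, 0.02 and -0.10 in the 3 comparisons, against 0.01, -0.01 and 0.00 over all tested genes. Id1 and Id3 were called in all 3 comparisons, as 5.9% of all tested genes were.

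**Figure D1:**
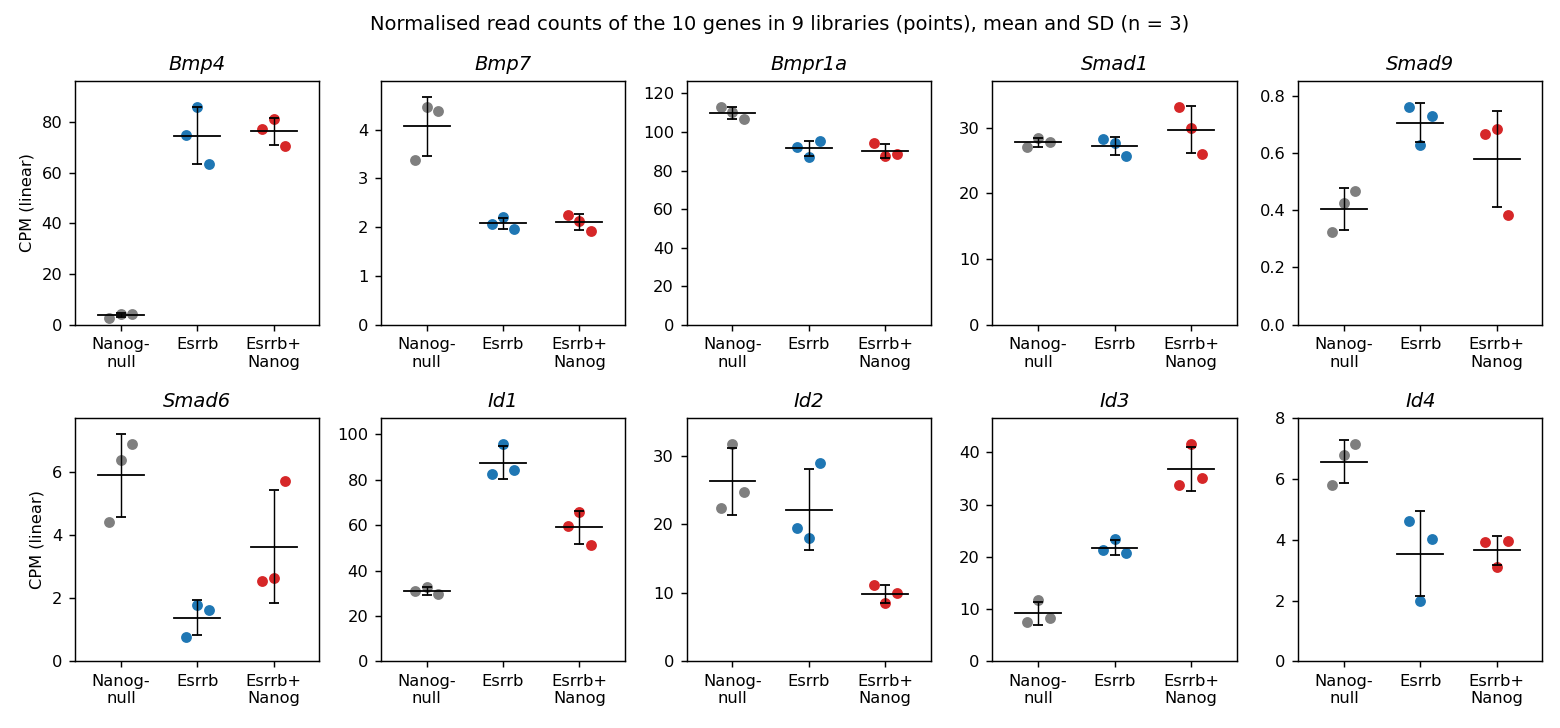
Normalised read counts (CPM, linear axes from 0) of the 10 genes in each of 9 libraries (points), with the mean (horizontal line) and SD (bar) of 3 libraries per line. Bmp4 lies between 2.82 and 4.14 CPM in Nanog-null cells and between 63.2 and 85.8 in the other 6; Id1, Id2 and Id3 take a different order of lines from each other.

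**Figure D2:**
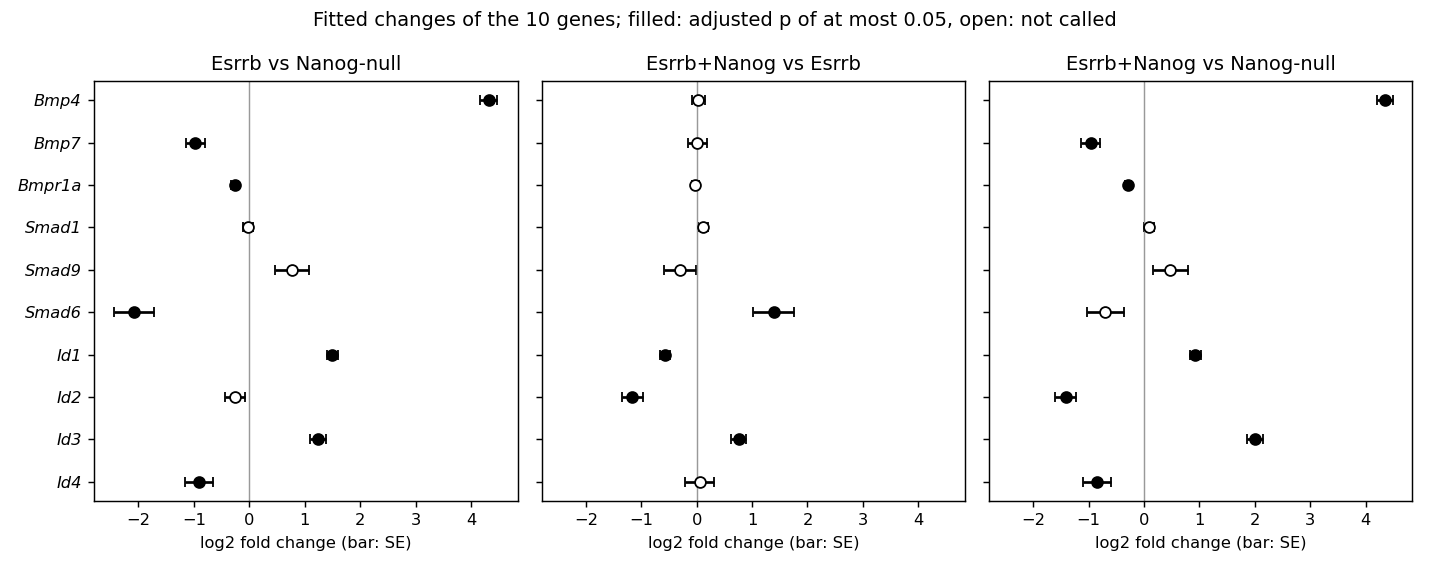
Fitted log2 fold changes (horizontal axis) of the 10 genes in the 3 comparisons between lines, with the SE as a bar and filled points for an adjusted p of at most 0.05. Bmp4 stands at 4.32 and 4.35 against the Nanog-null line and at 0.03 between the other lines, where the filled points are Smad6, Id1, Id2 and Id3.

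Among the ligands, Bmp4 (chr14:46383520-46390669, minus strand, mm10) was low in the Nanog-null line and high in both lines with Esrrb. It read at 2.82, 4.12 and 4.14 CPM in Nanog-null cells, at 74.7, 85.8 and 63.2 in Esrrb cells and at 77.3, 80.9 and 70.5 in Esrrb+Nanog cells. All 6 libraries of the last 2 lines lay above all Nanog-null libraries, and the last 2 lines overlapped. The mean rose from 3.69 ± 0.755 to 74.5 ± 11.3 CPM (SD, n = 3 each), a 19.9-fold difference (log2 4.32 ± 0.150 SE, adjusted p = 4.21e-09). Between the Esrrb+Nanog and the Esrrb line the difference was 0.03 ± 0.118 (log2, adjusted p = 0.897). Predicted genes overlap Bmp4 on the opposite strand, Gm15222 and Gm15217, with 80 and 32 counts in all 9 libraries together; whether counting used strand is not given in the sources used here. Beside Bmp4, the summed primitive streak and mesoderm markers read at 3.78 to 4.12, 10.6 to 21.7 and 9.44 to 17.6 CPM in the 3 lines. Of these markers Kdr, the VEGF receptor gene, went from 1.31 to 1.62 CPM in the Nanog-null line to 8.37 to 18.6 in the Esrrb line, while T did not exceed 1.23 CPM and Mixl1 0.92 in any library. Tbx6 was lower in the Esrrb line, at 1.04 to 1.30 and 0.41 to 0.63 CPM (log2 -1.07, adjusted p = 0.00837). Thus of 4 tested markers 1 was higher and 1 lower, against 24.2% of all tested genes in each direction. The part of such cells in the Bmp4 difference was not tested.

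Bmp7 (chr2:172868012-172940321, minus strand), a ligand that can pair with Bmp4 in one dimer, went the other way at a low level. It read at 3.38, 4.46 and 4.38 CPM in Nanog-null cells, at 2.07, 2.20 and 1.96 in Esrrb cells and at 2.25, 2.13 and 1.92 in Esrrb+Nanog cells. The Nanog-null libraries were the highest, with no overlap, and the other lines overlapped. Bmp7 was 1.96-fold lower in the Esrrb than in the Nanog-null line (log2 -0.97 ± 0.169, adjusted p = 0.000594) and differed by 0.01 ± 0.177 (adjusted p = 0.971) between the other two lines.

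Of 13 other BMP and GDF ligand genes, 5 passed the low-count rule. In the Esrrb line relative to the Nanog-null line 1 rose and 1 fell, against 24.2% of all tested genes in each direction. Bmp8a rose from 0.93 to 1.46 CPM to 2.65 to 3.36 (log2 1.38 ± 0.215, adjusted p = 0.000275), and Bmp8b fell from 3.38 to 4.85 CPM to 1.07 to 1.60 (log2 -1.46 ± 0.224, adjusted p = 0.000248). These paralogous genes are closely similar in sequence, so reads could be split between them and both values are uncertain. Bmp6 overlapped between these lines, at 0.65 to 1.69 and 1.07 to 2.14 CPM (adjusted p = 0.237). None of the 5 was called between the Esrrb+Nanog and the Esrrb line, and none of the 5 had an unadjusted p under 0.05 or a DESeq2 call there. Gdf3, a ligand typical of ES cells, read at 80.3 to 94.8 CPM across the 9 libraries.

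The receptor gene of the set, Bmpr1a (chr14:34410734-34503341, minus strand), encodes a type I receptor for BMP4. It read at 113, 110 and 107 CPM in Nanog-null cells, at 92.2, 87.2 and 95.2 in Esrrb cells and at 94.1, 87.7 and 88.5 in Esrrb+Nanog cells. The Nanog-null libraries lay highest without overlap, by a small amount: the Esrrb line was 1.2-fold lower (log2 -0.26 ± 0.0585, adjusted p = 0.00289). The Esrrb+Nanog and the Esrrb line overlapped (log2 -0.02 ± 0.0586, adjusted p = 0.842).

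All 10 other receptors and co-receptors passed the low-count rule. In the Esrrb line relative to the Nanog-null line 2 rose and 6 fell, against 24.2% of all tested genes called in each direction. The 2 that rose were Acvrl1, a type I receptor known from endothelium, and Eng, its co-receptor endoglin. Acvrl1 read at 0.46, 0.77 and 0.50 CPM in Nanog-null cells and 3.56, 4.43 and 2.69 in Esrrb cells (log2 2.61 ± 0.273, adjusted p = 1.46e-05). Eng rose from 13.1 to 15.2 CPM to 26.0 to 32.8 (log2 1.03 ± 0.101, adjusted p = 9.53e-06). Endothelial cells also express Kdr, which rose in the same libraries (above), and Pecam1, which fell (log2 -0.71, adjusted p = 0.000176). No list of endothelial markers was read, and the part of such cells in these 2 values was not tested. The 6 that fell were the type II receptors Bmpr2 and Acvr2b, the type I receptor Acvr1, and the repulsive guidance co-receptors Rgma, Rgmb and Hjv. Acvr2b fell from 85.8 to 96.0 CPM to 46.3 to 60.5 (log2 -0.72 ± 0.113, adjusted p = 0.000276), and Rgma, with the largest fold of the 6, from 3.38 to 4.31 CPM to 1.32 to 1.76 (log2 -1.35 ± 0.240, adjusted p = 0.000694). The Bmpr2 call ended without Nanog-null replicate 1 or Esrrb replicate 2 (adjusted p = 0.0547 and 0.0766), and the Hjv call without Nanog-null replicate 3, Esrrb replicate 1 or Esrrb replicate 3 (0.0522, 0.0597 and 0.0519). No receptor gene was called between the Esrrb+Nanog and the Esrrb line by edgeR or by DESeq2, with 1 higher and 1 lower at an unadjusted p under 0.05. Acvr2b was called lower there without Esrrb replicate 2 (log2 -0.37, adjusted p = 0.0306) and with no low-count rule (0.0474).

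The signal-transducing Smads of the set showed no called difference. Smad1 (chr8:79338395-79399518, minus strand) read at 27.0, 28.4 and 27.8 CPM in Nanog-null cells, at 28.3, 27.7 and 25.7 in Esrrb cells and at 33.1, 29.9 and 26.1 in Esrrb+Nanog cells. The 3 lines overlapped, with log2 differences of -0.03 ± 0.0909, 0.12 ± 0.0906 and 0.10 ± 0.0909 (adjusted p = 0.831, 0.418 and 0.393). Smad9 (chr3:54755582-54801257, plus strand) rested on 7 to 22 counts a library. Its levels were 0.32, 0.42 and 0.47 CPM in Nanog-null cells, 0.76, 0.63 and 0.73 in Esrrb cells and 0.66, 0.68 and 0.38 in Esrrb+Nanog cells. The Esrrb libraries lay above the Nanog-null libraries without overlap, but the difference of 0.77 ± 0.306 (log2) missed the threshold (adjusted p = 0.0551); without Esrrb+Nanog replicate 3 it passed (adjusted p = 0.0419), as it did in a fit of only those 2 lines (adjusted p = 0.0464).

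Of the 3 other Smads, Smad7, the second inhibitory Smad, rose in the Esrrb line and was higher again in the Esrrb+Nanog line. It read at 40.3, 50.2 and 49.4 CPM in Nanog-null cells, 137, 144 and 111.5 in Esrrb cells and 175, 202 and 167 in Esrrb+Nanog cells, with no overlap between any 2 lines. The log2 difference was 1.49 ± 0.115 (adjusted p = 1.67e-06) between the Esrrb and the Nanog-null line and 0.47 ± 0.110 (adjusted p = 0.0170) between the Esrrb+Nanog and the Esrrb line. The latter call ended without Esrrb replicate 3 or Esrrb+Nanog replicate 2 (adjusted p = 0.0553 and 0.0776). Smad5 was called only in the comparisons of the Esrrb+Nanog line, with 44.5 to 48.6 CPM in the Esrrb and 54.2 to 58.1 in Esrrb+Nanog cells (log2 0.30 ± 0.0689, adjusted p = 0.0156), a call that ended without any 1 of Esrrb replicates 1 and 3 and Esrrb+Nanog replicates 2 and 3. Smad4, the shared partner of all receptor-regulated Smads, was not called in any comparison (124 to 153 CPM). Its Nanog-null libraries lay above the Esrrb libraries without overlap (log2 -0.16 ± 0.0662, adjusted p = 0.0665), and the difference passed the threshold with library totals alone (0.0352), with the stricter low-count rule of 5 CPM (0.0367) and without Esrrb replicate 3 (0.0270) or Esrrb+Nanog replicate 1 (0.0332). Against the Nanog-null line the Esrrb+Nanog line had lower Smad4 without overlap (adjusted p = 0.0833), and passed without Esrrb+Nanog replicate 1 (0.0344).

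Smad6 (chr9:63953076-64022059, minus strand), which blocks BMP receptor signalling inside the cell, had the lowest level in the Esrrb line. It read at 4.4, 6.39 and 6.88 CPM in Nanog-null cells, at 0.76, 1.79 and 1.61 in Esrrb cells and at 2.55, 2.65 and 5.70 in Esrrb+Nanog cells. The Esrrb libraries lay below both other lines without overlap, and Esrrb+Nanog replicate 3 reached into the Nanog-null range. Smad6 was 4.25-fold lower in the Esrrb than in the Nanog-null line (log2 -2.09 ± 0.362, adjusted p = 0.000591) and 2.62-fold higher in the Esrrb+Nanog than in the Esrrb line (log2 1.39 ± 0.370, adjusted p = 0.0299). The second difference is the less firm: the call ended in a fit of those 2 lines alone (adjusted p = 0.0501) and without Esrrb replicate 1 (log2 1.10, 0.112), Esrrb replicate 3 (1.5, 0.0575) or Esrrb+Nanog replicate 3 (0.90, 0.111). Against the Nanog-null line the Esrrb+Nanog line differed by -0.70 ± 0.330 (log2, adjusted p = 0.0944), and by -1.18 without Esrrb+Nanog replicate 3 (adjusted p = 0.00783). Smad6 and Smad7, the pair of inhibitory Smads, thus had opposite signs in Esrrb relative to Nanog-null cells.

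Of the Id genes, Id1 (chr2:152736251-152737410, plus strand) was highest in the Esrrb line. It read at 30.9, 32.6 and 29.4 CPM in Nanog-null cells, at 82.4, 95.7 and 84.1 in Esrrb cells and at 59.7, 65.9 and 51.3 in Esrrb+Nanog cells. The 3 lines did not overlap, with the Esrrb+Nanog line in the middle. Id1 was 2.82-fold higher in the Esrrb than in the Nanog-null line (log2 1.5 ± 0.0964, adjusted p = 4.72e-07) and 1.48-fold lower in the Esrrb+Nanog than in the Esrrb line (log2 -0.57 ± 0.0932, adjusted p = 0.00237). Against the Nanog-null line, the Esrrb+Nanog line stayed 1.90-fold higher (log2 0.93 ± 0.0962, adjusted p = 1e-05).

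Id3 (chr4:136143497-136145755, plus strand) was highest in the Esrrb+Nanog line instead. It read at 7.59, 11.7 and 8.26 CPM in Nanog-null cells, at 21.2, 23.3 and 20.8 in Esrrb cells and at 33.8, 41.6 and 35.1 in Esrrb+Nanog cells. No 2 lines overlapped. The Esrrb line was 2.37-fold above the Nanog-null line (log2 1.24 ± 0.146, adjusted p = 3.5e-05), the Esrrb+Nanog line 1.69-fold above the Esrrb line (0.76 ± 0.136, 0.00411) and 4-fold above the Nanog-null line (2.00 ± 0.146, 7.27e-07).

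Id2 (chr12:25093799-25097140, minus strand) was lowest in the Esrrb+Nanog line. It read at 22.3, 31.8 and 24.7 CPM in Nanog-null cells, at 19.5, 18.0 and 28.9 in Esrrb cells and at 11.1, 8.52 and 9.97 in Esrrb+Nanog cells. The first 2 lines overlapped through Esrrb replicate 3, and the Esrrb+Nanog libraries lay below all others. Id2 was 2.23-fold lower in the Esrrb+Nanog than in the Esrrb line (log2 -1.16 ± 0.189, adjusted p = 0.00231). The Esrrb line differed from the Nanog-null line by -0.25 ± 0.180 (adjusted p = 0.269); without Esrrb replicate 3 that difference was -0.49 and passed (adjusted p = 0.0220).

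Id4 (chr13:48261228-48266026, plus strand) was the least abundant of the 4 per exon length in all 3 lines. It read at 5.79, 6.77 and 7.15 CPM in Nanog-null cells, at 4.63, 1.98 and 4.03 in Esrrb cells and at 3.91, 3.09 and 3.95 in Esrrb+Nanog cells. The Nanog-null libraries were the highest without overlap, and Esrrb replicate 2 was the lowest of all. The Esrrb line was 1.87-fold lower than the Nanog-null line (log2 -0.90 ± 0.251, adjusted p = 0.0110), and the Esrrb+Nanog line 1.80-fold lower (-0.85 ± 0.252, 0.0134; 0.0555 without Esrrb+Nanog replicate 2). Between the lines with Esrrb the difference was 0.05 ± 0.259 (adjusted p = 0.922). Thus the 4 Id genes fell into different patterns: Id1 and Id3 rose and Id4 fell in the Esrrb line, and Id3 rose while Id1 and Id2 fell in the Esrrb+Nanog line relative to the Esrrb line.

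To compare levels between Id genes, CPM was divided by the exon length in kb. The summed per-length level of the 4 was 44.3 ± 4.39 CPM per kb in the Nanog-null line, 97.5 ± 5.71 in the Esrrb line and 76.4 ± 7.71 in the Esrrb+Nanog line (SD, n = 3). Id1 made up 60.5 ± 3.66%, 77.2 ± 2.53% and 66.4 ± 1.99% of this sum in the 3 lines, and so most of it per length in each. Id2 went from 24.2 ± 2.17% to 9.34 ± 2.61% and 5.36 ± 1.06%. The share of Id3 was 11.5 ± 1.57% and 12.5 ± 0.460% in the first 2 lines and 27.0 ± 1.86% in the Esrrb+Nanog line. By mean Id3 was the second of the 4 in both lines with Esrrb, and it overlapped with Id2 in the Esrrb line. Id4 contributed 3.87 ± 0.482%, 0.961 ± 0.417% and 1.26 ± 0.276%. In an exact two-sided permutation test over libraries, 9 of 12 differences in share reached p = 0.1, the smallest that 3 against 3 libraries allow; the adjusted value over 12 was 0.133, so none can pass the threshold at this size. In the same exact test, the other 3 differences were those of Id1 between the Esrrb+Nanog and Nanog-null lines (p = 0.2, adjusted 0.24), of Id3 between the Esrrb and Nanog-null lines and of Id4 between the Esrrb+Nanog and Esrrb lines (p = 0.4 and adjusted 0.4 for both). Without division by length, Id1 made up 39.3 to 46.4% in Nanog-null, 61.0 to 68.9% in Esrrb and 51.1 to 55.3% in Esrrb+Nanog libraries. Its majority in the Nanog-null line thus rests on the exon lengths used.

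**Figure D3:**
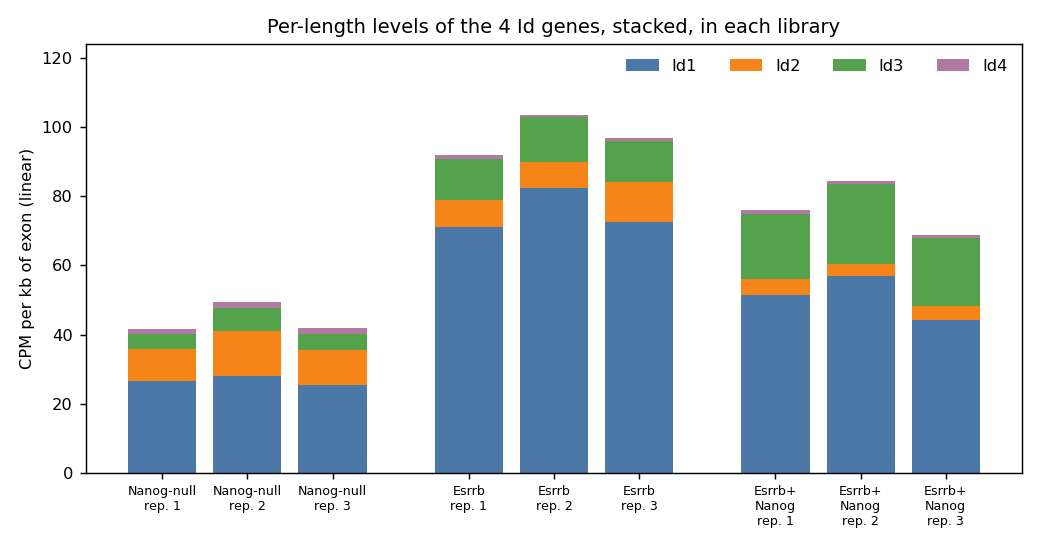
Per-length levels (CPM per kb of exon, linear axis from 0) of Id1, Id2, Id3 and Id4, stacked, in each of 9 libraries. The stacks average 44.3 in the Nanog-null, 97.5 in the Esrrb and 76.4 in the Esrrb+Nanog line; the Id3 part is widest in Esrrb+Nanog cells and the Id2 part narrowest there.

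Over all 10 genes, Id1 had the highest per-length level and Smad9 the lowest in each line. In the Nanog-null line the order was Id1 (26.7 CPM per kb), Bmpr1a (17.3), Id2 (10.8), Id3 (5.13), Smad1 (4.43), Smad6 (1.84), Id4 (1.71), Bmp4 (1.64), Bmp7 (1.01) and Smad9 (0.0755). The ranges of Id3 and Smad1 overlapped there, as did those of Smad6 and Id4 and those of Id4 and Bmp4. In the Esrrb line Bmp4 was second at 33.2, between Id1 (75.3) and Bmpr1a (14.4), and Id3 (12.2) and Id2 (9.07) overlapped. In the Esrrb+Nanog line the order began with Id1 (50.8), Bmp4 (33.9), Id3 (20.6) and Bmpr1a (14.2), and Id2 (4.05) overlapped with Smad1 (4.74). Bmp4 thus moved from eighth to second place among the 10 between the Nanog-null line and both other lines.

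The other pathway genes were read from lists by role, 73 genes in 7 lists of which 55 passed the low-count rule. In the Esrrb line relative to the Nanog-null line 13 rose and 21 fell (61.8% called against 48.5% of all genes), and in the Esrrb+Nanog line relative to the Esrrb line 4 rose and 4 fell (14.5% against 13.2%). In the Esrrb+Nanog line relative to the Nanog-null line 15 rose and 19 fell (61.8% against 54.4%): 1 and 1 ligands, 2 and 6 receptors, 2 and 0 Smads, 2 and 3 extracellular modulators, 4 and 4 intracellular regulators, 1 and 4 targets and 3 and 1 Id partners. Without Nanog-null replicate 2 there were 2 and 1 ligands, 2 and 5 receptors, 3 and 3 extracellular modulators and 1 and 3 targets. The calls of Acvr2a, Hjv, Bmp1, Msx1 and Tcf12 in this comparison each ended in several fits that left out 1 library. Of 17 extracellular antagonists and modulators, 11 were tested, and 3 rose and 4 fell in the Esrrb line. Chrd, the secreted antagonist chordin, rose from 2.71 to 3.27 CPM to 4.45 to 6.89 (log2 0.89 ± 0.183, adjusted p = 0.00180), and Twsg1, a chordin partner, fell from 69.3 to 73.3 CPM to 47.0 to 59.95 (log2 -0.45 ± 0.0856, adjusted p = 0.00117). The antagonists Grem1 and Bmper also rose, both below 2.3 CPM, and the antagonists Fstl3 and Nbl1 and the chordin-cleaving protease Bmp1 also fell. Without Nanog-null replicate 2, which had 7.54 CPM of Bmp1 against 1.43 and 3.54 in its replicates, 3 rose and 2 fell: Fstl3 and Nbl1 were then at adjusted p = 0.0978 and 0.0818. Fstl3 also missed the threshold in DESeq2 (adjusted p = 0.0655) and without Esrrb replicate 2 (0.0950), Nbl1 without Esrrb replicate 1 (0.0534), and Grem1 when one of replicates 1 and 3 of either line was left out. Between the Esrrb+Nanog and the Esrrb line 1 of the 11 was called: Bmper was lower (adjusted p = 0.0413), a call that ended in 5 of the 9 fits that left out 1 library.

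Among 12 intracellular and membrane regulators, all tested, 4 rose and 4 fell in the Esrrb line, and 1 rose and 2 fell in the Esrrb+Nanog line against it. Of the 4 that fell in the Esrrb line, the ubiquitin ligase genes Smurf1 and Smurf2 had small differences (log2 -0.17 and -0.19, adjusted p = 0.0459 and 0.0225). The Smurf1 call ended in 7 of the 9 fits that left out 1 library, with a replicate block (adjusted p = 0.0641) and with no low-count rule (0.127), and that of Smurf2 with no low-count rule (0.0611). Both ended without Esrrb replicate 1 (0.161 and 0.0739) or 2 (0.0636 and 0.0795), which left 2 lower. Skil, a corepressor of Smad complexes, fell in the Esrrb line and was lower again in the Esrrb+Nanog line. It read at 463, 369 and 402 CPM in Nanog-null cells, 223, 142 and 263 in Esrrb cells and 103, 98.3 and 94.4 in Esrrb+Nanog cells, without overlap (log2 -0.98 ± 0.171 and -1.08 ± 0.173, adjusted p = 0.000621 and 0.00212). Tob1, a Smad-binding antiproliferative protein, rose from 24.3 to 26.8 CPM to 38.4 to 50.6 in the Esrrb line (log2 0.79 ± 0.117, adjusted p = 0.000203) and to 50.5 to 64.7 in the Esrrb+Nanog line (0.42 ± 0.114, 0.0333). The last 2 lines overlapped, and the second call ended in the fit of those lines alone and without any 1 of Esrrb replicates 1 and 3 and Esrrb+Nanog replicates 2 and 3. Ppm1a, a phosphatase of receptor-regulated Smads, rose from 198 to 209 CPM to 246 to 247 and read at 185 to 194 in the Esrrb+Nanog line (log2 0.28 ± 0.0507 and -0.37 ± 0.0508, adjusted p = 0.000713 and 0.000828).

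Of 10 other BMP target genes, 8 were tested, and none rose and 4 fell in the Esrrb line relative to the Nanog-null line: Hey1, Gata2, Gata3 and Tfap2c. Bmp4, Id1 and Id3 were higher in the same comparison. Hey1, a Notch and BMP target, fell from 6.39 to 7.35 CPM to 3.36 to 3.59 (log2 -0.97 ± 0.167, adjusted p = 0.000567). Without Nanog-null replicate 2 the Gata2 and Gata3 calls ended (adjusted p = 0.0794 and 0.0804) and 2 of the 8 fell. The Gata2 call also ended when Nanog-null replicate 3 or one of Esrrb replicates 1 and 3 was left out, and the Gata3 call without Esrrb replicate 1. Gata2, Gata3 and Tfap2c are also trophoblast genes, and the summed trophoblast markers were 57.9 to 199 CPM in the Nanog-null, 24.5 to 29.2 in the Esrrb and 31.7 to 40.5 in Esrrb+Nanog cells; their part in these counts was not tested. Of 7 trophoblast markers tested, 4 were called lower in the Esrrb line, with 3 in DESeq2 and 3 without Nanog-null replicate 2. Over all tested genes 24.2% were called lower. In the Esrrb+Nanog line relative to the Esrrb line 1 target rose and 1 fell. Gata2 was higher there without overlap but was not called (log2 1.35 ± 0.468, adjusted p = 0.0809). It passed in DESeq2 (adjusted p = 0.0391), with a replicate block (0.0453), with no low-count rule (4.47e-05) and without Esrrb replicate 2 (0.0223). Tfap2a, a transcription factor of ectoderm and neural crest, read at 1.90, 2.20 and 3.42 CPM in Esrrb cells and 17.1, 14.9 and 10.1 in Esrrb+Nanog cells (log2 2.49 ± 0.239, adjusted p = 8.07e-05). Neuroectoderm markers summed to 77.5 to 107 and 114 to 167 CPM in these 2 lines, and their part was not tested. Of these 6 markers 3 were called higher, as 5.43% of all tested genes were. The Sox1 call ended when one of Esrrb replicates 1 and 3 or Esrrb+Nanog replicates 2 and 3 was left out (adjusted p = 0.0504 to 0.122). That of Pax6 ended without Esrrb replicate 1 or Esrrb+Nanog replicate 3 (0.0767 and 0.0561). Gata3 was lower (log2 -1.13 ± 0.325, adjusted p = 0.0411), a call that ended in 6 of the 9 fits that left out 1 library.

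Of 8 genes whose proteins pair with or act on Id proteins, 6 were tested. In the Esrrb line 2 rose and 2 fell, against 24.2% of all tested genes in each direction. Usp1, a deubiquitinase known to stabilise Id proteins, rose from 155 to 163 CPM to 290 to 331 (log2 0.95 ± 0.0670, adjusted p = 8.42e-07). Hes1, a helix-loop-helix repressor of the Notch pathway, rose from 16.0 to 22.3 CPM to 35.9 to 37.6 (log2 0.93 ± 0.118, adjusted p = 6.08e-05). The E protein genes Tcf3 and Tcf12 were lower (log2 -0.21 ± 0.0680 and -0.45 ± 0.134, adjusted p = 0.0254 and 0.0149). The Tcf3 call ended when one of Nanog-null replicates 2 and 3 or Esrrb replicate 3 was left out, and the Tcf12 call without Esrrb replicate 2. None of the 6 was called between the Esrrb+Nanog and the Esrrb line by edgeR as reported or by DESeq2, with 2 higher and 1 lower at an unadjusted p under 0.05. Tcf4 was called lower there with no low-count rule (adjusted p = 0.0154), with a replicate block (0.0307) and without Esrrb replicate 2 (0.00935). Hes1 was called higher with no low-count rule (0.0243).

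**Figure D4:**
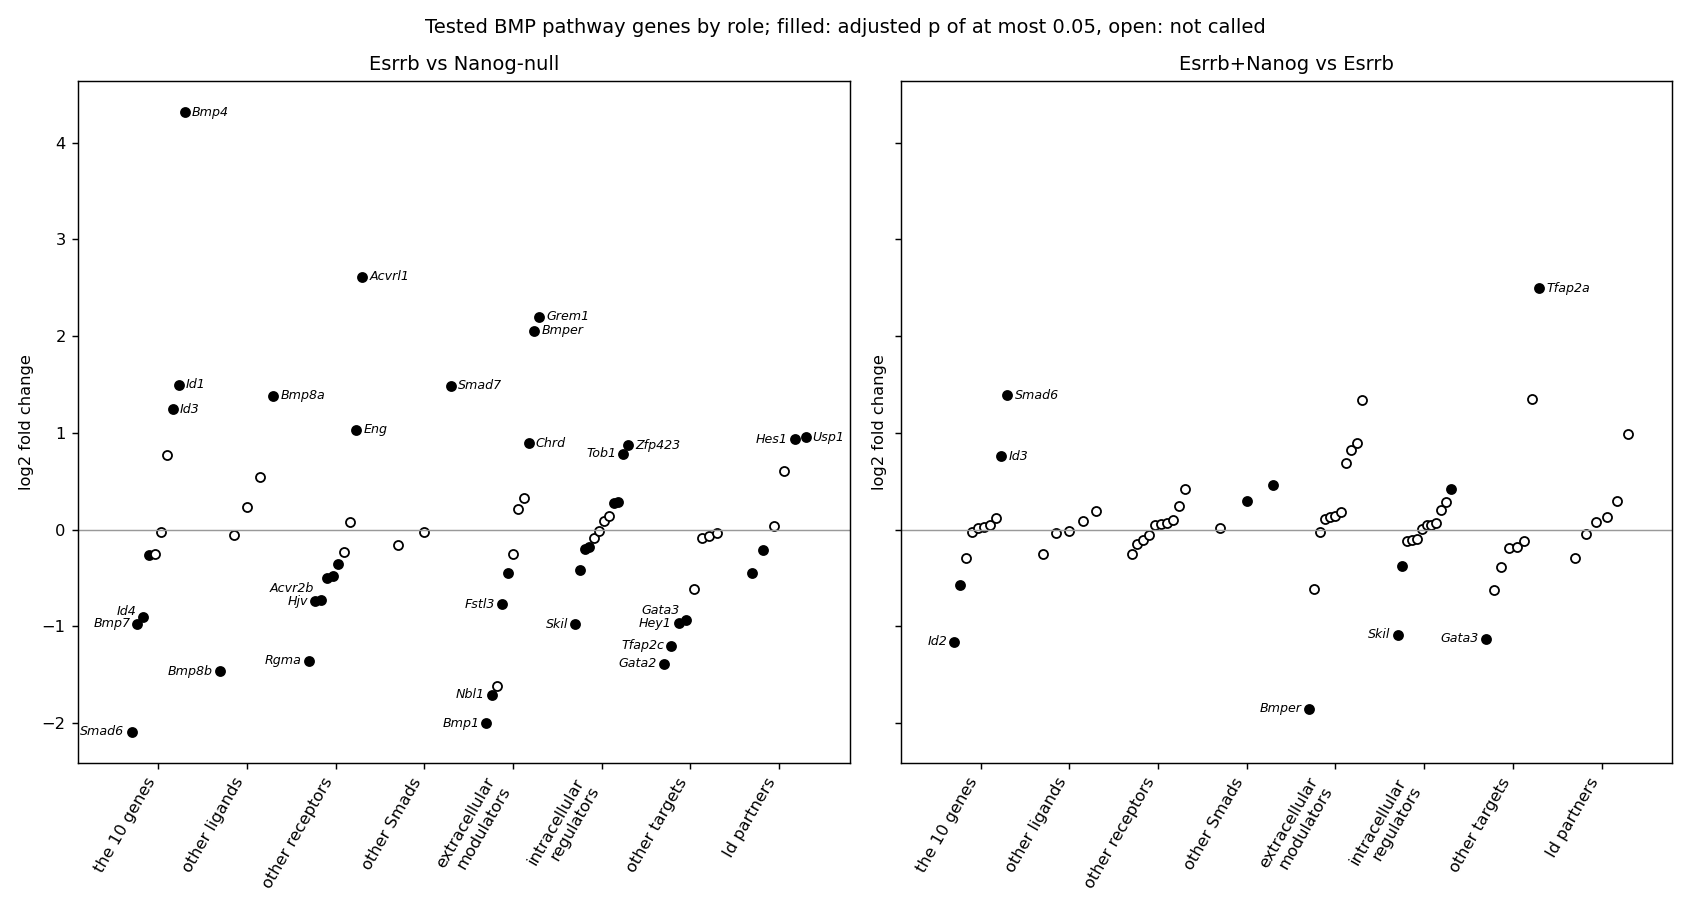
Log2 fold changes (vertical axis) of the tested genes in each role, one point per gene, for the Esrrb relative to the Nanog-null line (left) and the Esrrb+Nanog relative to the Esrrb line (right); filled points have an adjusted p of at most 0.05, and those beyond 0.6 in either direction are named. Filled points are many on the left (13 higher and 21 lower among the other pathway genes) and few on the right (4 higher and 4 lower).

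Among 10187 protein-coding genes with a mean of at least 5 CPM, the genes nearest in profile over the 9 libraries were found by the root-mean-square difference of centred log2 CPM. Closest to Bmp4 were A2m (0.332), Ankrd33b (0.349) and Gm21761 (0.383). Id1 had Sccpdh (0.080), Steap2 (0.103) and Trib2 (0.136), which lay closer than any neighbour of the other members examined. For Id2 they were Gm9833 (0.190), Rlbp1 (0.205) and Tspan2 (0.222). The profile of Id3 was nearest to Rsad1 (0.154), Smad7 (0.181) and Ptprn (0.184), so the one gene of the BMP lists that came up was Smad7. Smad6 had more distant neighbours, such as Phlda2 (0.403) and Dysf (0.432). No neighbours were sought for Bmp7, Bmpr1a, Smad1, Smad9 and Id4, whose line means spanned less than 1 on the log2 scale.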

How the data were processed

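Total RNA of sorted cells was depleted of ribosomal RNA and made into NEBNext libraries, per the labels' protocols. The submitters' processing notes name bcl2fastq 2.19.1, STAR 2.5.3a and build mm10. The deposited values are unscaled read counts per Ensembl gene, per the file headers and the values. For the counting and strand settings nothing is stated in the sources used here. The table had 15 library columns, of which 9 matched the samples and 6 were not used here. Symbols, positions and exon lengths came from GENCODE M21.

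Testing used edgeR 4.0.16 (R 4.3.3) with its default low-count rule, trimmed-mean factors and a quasi-likelihood test in one fit of the 9 libraries, with no term besides line. Benjamini-Hochberg adjustment covered 16198 genes, and an adjusted p of at most 0.05 counts as called. Adjusted p-values are edgeR's except where DESeq2 is named. SE is the absolute log2 change divided by the square root of F. CPM has no pseudocount; profiles used a prior count of 2. Counts modelled on these libraries were also simulated and fitted with only the 2 lines compared. For the Esrrb and Nanog-null lines, 67, 67 and 64 of 15654 genes were changed 1.5-, 2- and 4-fold. The fit recovered 56.7%, 80.6% and 98.4% of them, with 4.32% false calls. With similar numbers changed, the values for the Esrrb+Nanog against the Esrrb line were 55.4%, 76.2%, 98.5% and 8.64% (15524 genes). Against the Nanog-null line they were 58.2%, 69.7%, 98.5% and 7.41% (15479 genes). The reported fit of 9 libraries called far larger shares of genes (13.2% to 54.4%), so these rates do not describe that fit. No 2 libraries of a line agreed within sampling noise (chi-square per degree of freedom 5.03 to 19.5).

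The 10 genes and the 7 pathway and 6 marker lists were chosen with earlier results of these data known. By a rule, the text names the 10 genes, the 3 tested genes of each pathway list with the smallest adjusted p in any comparison, Nanog, Esrrb, Pecam1, Pdgfra, and the 3 nearest profiles of each member whose line means span at least 1 on the log2 scale; 1 gene is not reported here. Other listed genes were named after their values were seen. Alternatives were RLE factors, library totals alone, DESeq2 1.42.0, no low-count rule, at least 5 CPM in 3 libraries, only the 2 lines compared, a replicate block, a test against a fold of 1.5, and leaving out single libraries (9 fits).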

Additional observations from a re-analysis of the deposited data

How the results depend on the processing

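Of the 3 comparisons, the members called changed most where a fold of 1.5 was required. Then 0 of the 10 genes were called between the Esrrb+Nanog and the Esrrb line by edgeR (3 had an unadjusted p under 0.05, and DESeq2 tested against no change called 4), and the genes called over the whole table were 2488 between the Esrrb and Nanog-null lines, 233 between the Esrrb+Nanog and Esrrb lines and 3063 between the Esrrb+Nanog and Nanog-null lines, fewer by the construction of that test. Leaving out 1 library gave 1105 to 2374 calls between the Esrrb+Nanog and Esrrb lines over all genes; the lowest were 1105 without Esrrb replicate 1, 1215 without Esrrb+Nanog replicate 2 and 1378 without Esrrb replicate 3. In that comparison 41.2% of calls were higher as reported and 59.6% with library totals alone.

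Signs that reversed belonged to differences that were not called as reported. With library totals alone they were Bmpr1a (0.042) and Usp1 (0.022) between the Esrrb+Nanog and Esrrb lines. With 1 library left out, the log2 differences between the Esrrb and Nanog-null lines ran from -0.07 to 0.016 for Smad1, -0.087 to 0.004 for Smad5 and -0.307 to 0.132 for Tfap2a. Between the Esrrb+Nanog and Esrrb lines they ran from -0.075 to 0.144 for Bmp4, -0.029 to 0.075 for Bmp7, -0.057 to 0.005 for Bmpr1a, -0.244 to 0.298 for Id4, -0.011 to 0.19 for Bmp8a, -0.066 to 0.412 for Bmp6, -0.009 to 0.162 for Eng, -0.041 to 0.067 for Smad4, -0.247 to 0.051 for Hey1 and -0.083 to 0.021 for Usp1. Pdgfra ran from -0.148 to 1.154 between the Esrrb+Nanog and Nanog-null lines. The cause was not tested.

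The labels do not state whether the replicate numbers pair the libraries, and the values do not settle it. Same-numbered libraries of different lines had correlations of deviations of -0.025 to 0.278, and differently numbered ones -0.329 to 0.224. Not all libraries correlated best with their own number. Over all genes, a replicate block gave 8000, 2381 and 8946 calls in the 3 comparisons, against 7849, 2135 and 8816 without it. With the replicate number as a block, 7, 4 and 8 of the 10 genes were called; Smad6 passed between the Esrrb+Nanog and Nanog-null lines (log2 -0.73, adjusted p = 0.0169), as did Bmp6 there (0.0121) and Pecam1 between the Esrrb+Nanog and Esrrb lines (0.0322), and no other call of the genes named by the rule changed. Depth limits Smad9, with 7 to 22 counts a library.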
